A study of Mus musculus with 5 samples.

Results

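Spi1 encodes PU.1, an ETS factor, and the signal of PU.1 at this gene was read window by window from chromatin immunoprecipitation and sequencing (ChIP-seq) of mouse dendritic cells. The members are all deposited windows on chromosome 2 between 91000000 and 91130000 (mm10), 79 of 329996 windows in all. They were chosen by a rule on position, around the Spi1 promoter near 91096101 and the elements upstream of it. The samples were conventional dendritic cells (cDCs, 2 libraries), plasmacytoid dendritic cells (pDCs, 2 libraries) and 1 input library of unprecipitated cDC chromatin. All came from a strain labelled C56BL/6 and from Flt3L culture, with no genetic change, treatment, time or age given. Chromatin was fixed with paraformaldehyde and precipitated with the PU.1 antibody T-20. The labels do not say how the cell types were separated or how pure they were. The 2 libraries of a cell type are named as biological replicates.

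PU.1 is a dose-sensitive regulator of myeloid and lymphoid development. It binds DNA at a GGAA core, and Spi1 is a known target of its own protein. In mouse haematopoietic cells Spi1 transcription depends on a promoter together with distal elements upstream, among them the upstream regulatory element (URE), at which PU.1, RUNX1 and other factors are known to bind. Which of the sites below carries that name is not stated in the labels, so each site is called by the distance of its highest window from the promoter window at 91096101. A negative distance means upstream of Spi1.

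PU.1 signal was highest in a dense group of sites between -15.15 and -9.60 kb and at a strong site at -25.40 kb. A weaker site lay at -44.00 kb, and the promoter held few counts. Within the upstream group the sites moved in opposite directions. Summit signal at -15.15 and -11.35 kb was higher in cDCs, by 2.43-fold and 2.75-fold, and at -13.00 kb in pDCs, by 1.72-fold. By sums over the whole regions the log2 folds (pDC minus cDC) were smaller, at -0.76, -1.12 and 0.68 in that order. The -13.00 kb call was lost in 7 of 13 alternatives, among them plain library sizes, with which every called window of the interval was higher in cDCs. The -11.35 kb call was lost in 2 of 13, and the -15.15 kb call held in all 13. The sites between and beside them, at -14.80, -13.75 and -9.60 kb, were not called different. Summed over the Spi1 locus, the gene span with 20 kb on both sides, the difference was a log2 fold of -0.04 ± 0.09 (edgeR adjusted p = 0.793). That sum of 77 windows takes in the -25.40 kb site and windows beyond the interval.

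Every value is a read count in a 10 bp window, or its CPM value, the count scaled to a common library size adjusted by the trimmed mean of M-values (TMM). Log2 folds are pDC minus cDC with the standard error (SE) implied by edgeR's quasi-likelihood test, n = 2 libraries per cell type, and p-values were adjusted over all 286435 tested windows by Benjamini-Hochberg. A window was called at an adjusted p below 0.05. Less PU.1 per bound cell and fewer bound cells cannot be told apart in these bulk libraries.

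The PU.1 libraries held 6896416 to 11388554 counts over all windows, fewer in pDCs than in cDCs, and the input held 2776490. In the interval the libraries held 3957 and 4359 counts in cDCs, 3235 and 2260 in pDCs, and 85 in the input. At marker loci, where PU.1 signal says nothing of expression, 0 of 6 cDC marker loci were higher in cDCs and 1 (Sirpa) was higher in pDCs, where 9.53% and 10.4% of all loci were. Of 6 pDC marker loci, 3 (Siglech, Bst2 and Spib) were higher in pDCs. Of 4 B cell loci, 2 (Pax5 and Ebf1) were higher in pDCs, the summed signal of the list being 238 and 224 CPM in cDCs and 304 and 288 CPM in pDCs. No T cell locus of 3 measured was called, and of 4 macrophage and neutrophil loci 1 (Mpo) was higher in pDCs. No measured marker locus was at 0 in any library, and the part of other cells in the Spi1 values was not tested.

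**Figure D1:**
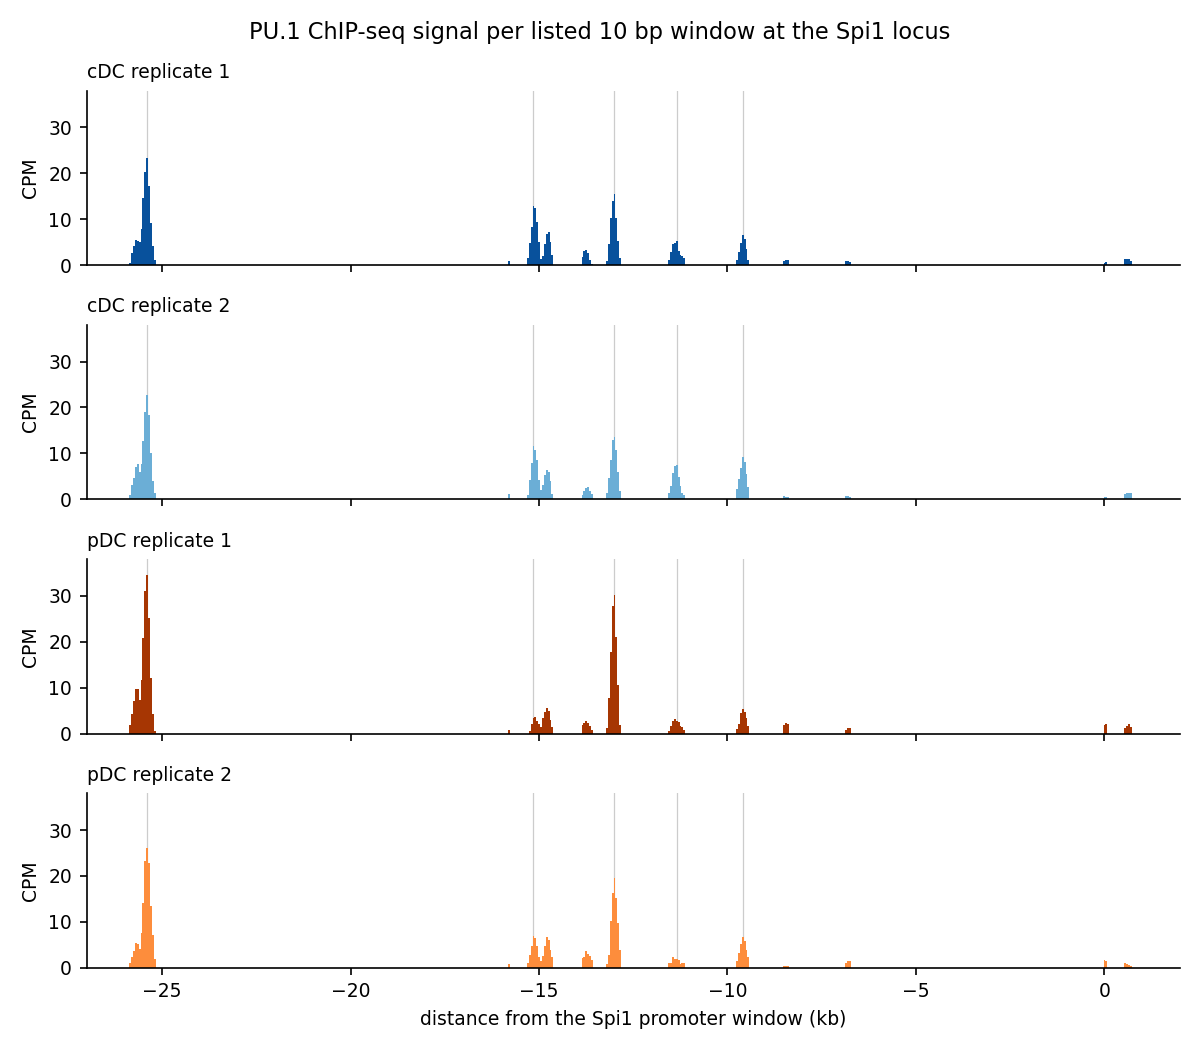
PU.1 signal in CPM (y axis) of each listed 10 bp window against its distance from the Spi1 promoter window in kb (x axis), 1 panel per library; grey lines mark 5 summits. The site at -25.40 kb is the highest in all 4 libraries, and the bars at -15.15 and -11.35 kb are taller in cDCs while those at -13.00 kb are taller in pDCs.

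The 79 windows formed 14 sites when windows at most 100 bp apart were joined. The site at -15.15 kb held a second maximum at -14.80 kb, parted from the first by a window below 50% of the lower maximum, and the split was made after seeing the data. Of the 79 windows, 73 passed the low-count filter and were tested, in 13 of the 14 sites. The single window at -15.80 kb, with 9 and 14 counts in cDCs and 6 and 5 in pDCs, was among the 6 left out. Called different were 15 of the 73 tested windows (20.5%), 9 higher in cDCs and 6 higher in pDCs. Over all tested windows 14.4% were called, 6.36% higher in cDCs and 7.99% higher in pDCs. The direction of many calls rests on the scaling: of all called windows 55.7% were higher in pDCs with TMM and 43% with plain library sizes, and in the interval plain library sizes left 10 calls, all higher in cDCs. The median log2 fold was 0.05 over the 73 windows and 0.01 over all tested windows. Folds lay above 0 in 37 windows and below 0 in 36. The 15 calls fell in 4 sites, with 6 at -15.15 kb, 3 at -11.35 kb, 4 at -13.00 kb and 2 at the promoter. The promoter windows passed the low-count filter through the pDC libraries alone, as did 2 windows without a call, and 2 further windows without a call passed through the cDC libraries alone. The other 13 calls did not depend on a single cell type in this way. By the DESeq2 Wald test 1 of the interval's windows was called, the summit at -15.15 kb, with 12 at an unadjusted p below 0.05 against 20 by edgeR.

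The site at -15.15 kb (summit 91080951 to 91080960) lay 1.42 kb outside the RefSeq span of Spi1. Its summit held 140 and 134 counts in cDCs and 25 and 43 in pDCs, or 12.8 and 11.6 CPM against 3.30 and 6.92 CPM. Both pDC libraries lay below both cDC libraries, and pDC replicate 1 was the lowest. The log2 fold was -1.28 ± 0.29 (edgeR adjusted p = 0.00337). The region passed as a whole, with an edgeR adjusted p of 0.0121 after its windows were combined by Simes' method, where 14.5% of all regions were called and 6% were called higher in cDCs. With a library left out, the lone library of its cell type is assumed to vary like the other pair. Without pDC replicate 1 the log2 fold was -0.81, and without pDC replicate 2 it was -1.88, both still called. Leaving out a cDC library gave -1.24 and -1.37, also called. The call held in all 13 alternatives tried, with adjusted p between 2.07e-08 and 0.0498.

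The second maximum of that region, at -14.80 kb and 350 bp from the first, did not share the difference. It held 74 and 73 counts in cDCs and 42 and 42 in pDCs, or 6.77 and 6.31 CPM against 5.54 and 6.76 CPM. The cell types overlapped, at a log2 fold of -0.10 ± 0.27 (edgeR adjusted p = 0.866). Over the 14 windows of the region the log2 fold thus ran from -1.47 to 0.25. Within a library, the -15.15 kb summit had 1.89 and 1.84 times the count of the -14.80 kb summit in cDCs, and 0.595 and 1.02 times in pDCs. These ratios use no scaling between libraries. The ratios are given without a test, since the exact permutation test used for single values (two-sided) cannot give a p below 0.33 with 2 libraries against 2.

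The site at -11.35 kb (summit 91084751 to 91084760) lay inside the RefSeq span of Spi1, which starts at 91082374 and so takes in more than the gene from the promoter onwards. Its summit held 58 and 86 counts in cDCs and 20 and 12 in pDCs, or 5.31 and 7.43 CPM against 2.64 and 1.93 CPM. The lowest cDC library stood above the highest pDC library. The log2 fold was -1.46 ± 0.34 (edgeR adjusted p = 0.00439), with an adjusted region p of 0.0172. All 8 tested windows of the site had folds below 0, from -1.46 to -0.42, and 3 were called. The summit fold was the largest of them, and the sum over the region gave a log2 fold of -1.12. The call ended without cDC replicate 2 (log2 fold -1.22, edgeR adjusted p = 0.149) and by the DESeq2 Wald test (-1.47, adjusted p = 0.0768). The width at 50% of the summit height was 200 bp in cDCs and 350 bp in pDCs, and in the pDC libraries the highest window lay 50 and 100 bp upstream of the common summit.

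**Figure D2:**
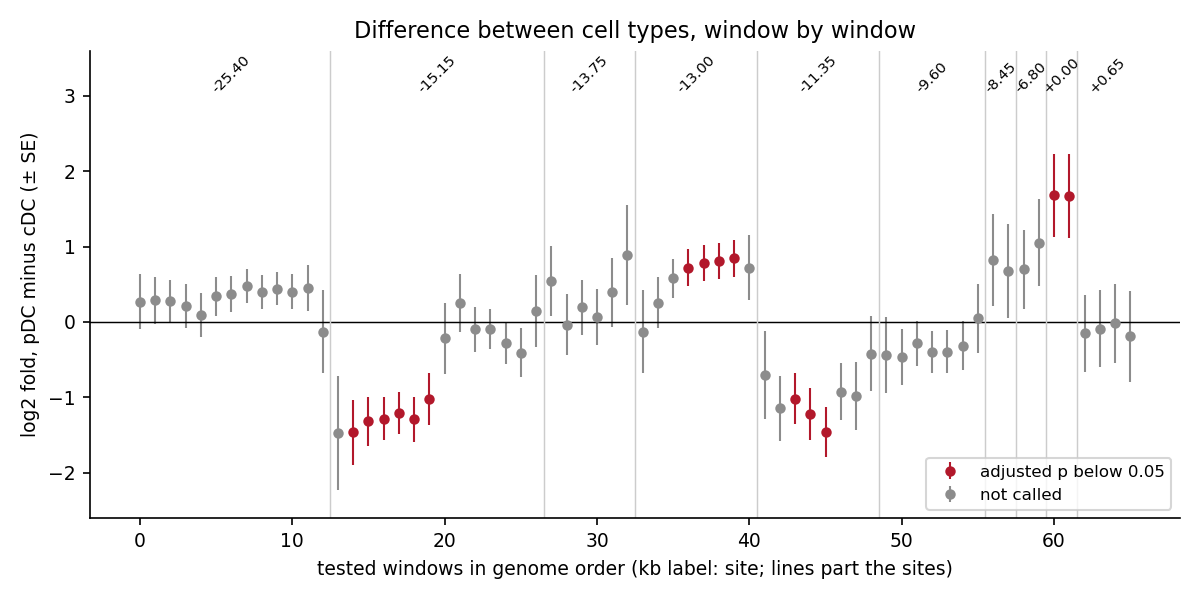
Log2 fold (pDC minus cDC, y axis, ± SE, n = 2 libraries per cell type) of the tested windows from -25.40 kb to the promoter, in genome order (x axis), with sites parted by grey lines and called windows in red. Called windows lie below 0 at -15.15 and -11.35 kb and above 0 at -13.00 kb and at the promoter, whose windows passed the filter through pDCs alone, with the -14.80 kb maximum near 0 in the right part of the -15.15 kb panel.

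The site at -13.00 kb (summit 91083101 to 91083110, inside the Spi1 span) was the strongest of the upstream group in each library. It held 170 and 157 counts in cDCs and 229 and 122 in pDCs, or 15.5 and 13.6 CPM against 30.2 and 19.6 CPM. Both pDC libraries lay above both cDC libraries in CPM, though in raw counts they overlapped. The log2 fold was 0.78 ± 0.24 (edgeR adjusted p = 0.0274), 4 of 8 tested windows were called higher in pDCs, and the region as a whole missed the threshold (adjusted p = 0.0523). The call was lost without cDC replicate 1 (0.84), without cDC replicate 2 (0.66) and without pDC replicate 1 (0.44). It was also lost with library-size scaling (0.66, edgeR adjusted p = 0.0725), and the log2 fold was 1.05 without pDC replicate 2. The summit window and the width at 50% of that height, 200 bp, were the same in all 4 libraries and in both cell types respectively. In cDCs 1524 of the 60527 regions of the genome had a higher summit, and in pDCs 374.

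The remaining upstream sites were not called. At -9.60 kb (summit 91086501 to 91086510) the counts were 72 and 106 in cDCs and 40 and 42 in pDCs. In CPM these were 6.59 and 9.16 against 5.28 and 6.76, so the cell types overlapped, at a log2 fold of -0.40 ± 0.27 (edgeR adjusted p = 0.367). At -13.75 kb, 0.023 kb outside the Spi1 span, the counts were 35 and 28 in cDCs and 21 and 23 in pDCs. The log2 fold there was 0.19 ± 0.36 (edgeR adjusted p = 0.787). The weak sites at -8.45 and -6.80 kb held at most 17 counts in any library at their summits and were not called.

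The order of the sites by summit level differed between the cell types below the top 2 places. By mean CPM over 2 libraries (± SD), the cDC order was -25.40 kb (23.0 ± 0.361), -13.00 kb (14.6 ± 1.4), -15.15 kb (12.2 ± 0.869), -9.60 kb (7.87 ± 1.82), -14.80 kb (6.54 ± 0.327) and -11.35 kb (6.37 ± 1.5). From -9.60 kb on, cDC neighbours in that order lay within their spread. The pDC order was -25.40 kb (30.2 ± 5.91), -13.00 kb (24.9 ± 7.48), -14.80 kb (6.15 ± 0.861), -9.60 kb (6.02 ± 1.05) and -15.15 kb (5.11 ± 2.56), with -11.35 kb (2.28 ± 0.500) below -44.00 and -13.75 kb. In pDCs the first pair of sites overlapped in their library values, as did the next group of 3. All windows are 10 bp wide, so these levels compare equal lengths.

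**Figure D3:**
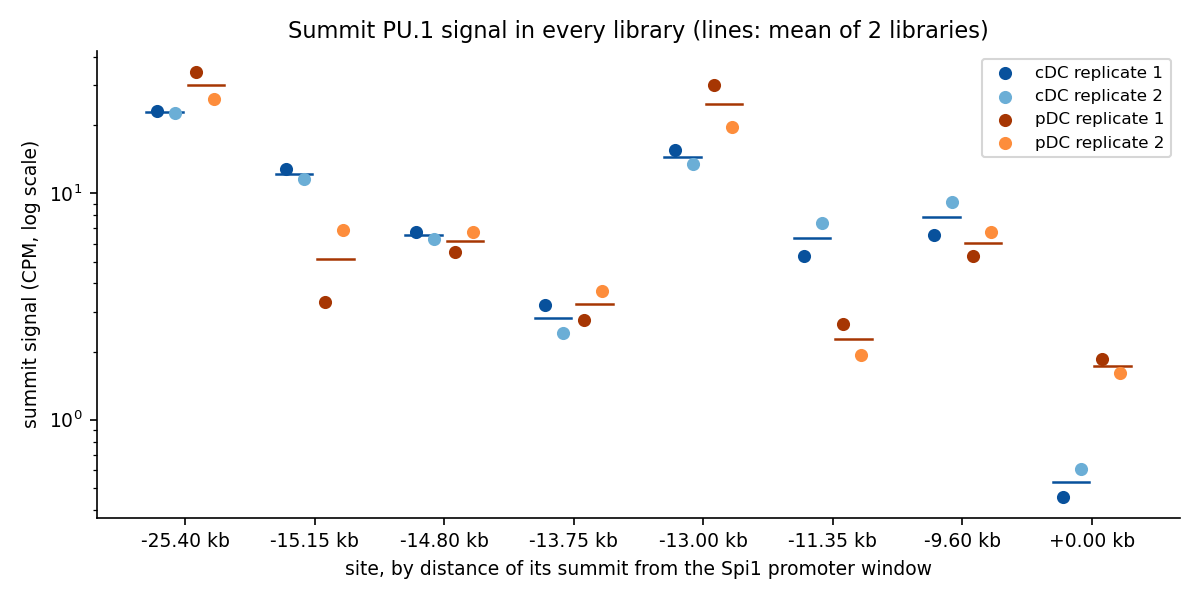
Summit signal in CPM (y axis, log scale) of 8 sites (x axis) in each of the 4 libraries, with lines at the mean of the 2 libraries of a cell type. The libraries of the cell types do not overlap at -25.40, -15.15, -13.00, -11.35 and +0.00 kb, of which -25.40 kb was not called, and they overlap at -14.80, -13.75 and -9.60 kb.

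The division of signal among the upstream sites was also taken within each library, which removes scaling between libraries. Each summit count was divided by the sum of the summit counts of the 7 upstream maxima, 558 and 598 counts in cDCs and 383 and 289 in pDCs. The intervals are exact Clopper-Pearson intervals at 95% and cover counting error only. The -13.00 kb summit held 30.5% (26.7 to 34.5) and 26.3% (22.8 to 30) in cDC replicates 1 and 2. In pDC replicates 1 and 2 it held 59.8% (54.7 to 64.7) and 42.2% (36.5 to 48.1). The pDC intervals lay above the cDC intervals and did not overlap each other. The -15.15 kb summit held 25.1% (21.5 to 28.9) and 22.4% (19.1 to 26.0) in cDCs, against 6.53% (4.27 to 9.49) and 14.9% (11 to 19.5) in pDCs. That of pDC replicate 2 met the interval of cDC replicate 2. The -11.35 kb summit held 10.4% (7.99 to 13.2) and 14.4% (11.7 to 17.5) in cDCs, against 5.22% (3.22 to 7.95) and 4.15% (2.16 to 7.14) in pDCs. By counts summed over each region, the -11.35 kb shares in pDCs were 8.20% and 6.51%, beside 12.95% and 15.7% in cDCs. A higher share at one site lowers the others, so the shares are not independent of each other.

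Ratios between single sites restate this division, since they come from the same counts. The -13.00 kb summit had 1.21 and 1.17 times the count of the -15.15 kb summit in cDCs, and 9.16 and 2.84 times in pDCs. Against the -11.35 kb summit it had 2.93 and 1.83 times the count in cDCs, and 11.4 and 10.2 times in pDCs. The common summit is not the highest pDC window at -11.35 kb, and by region sums these ratios were 2.26 and 1.72 in cDCs and 6.88 and 6.27 in pDCs. The pDC libraries thus differed more than 3-fold from each other in the first ratio and little in the second. Between the sites higher in cDCs, -15.15 against -11.35 kb, the ratios were 2.41 and 1.56 in cDCs and 1.25 and 3.58 in pDCs, and overlapped.

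**Figure D4:**
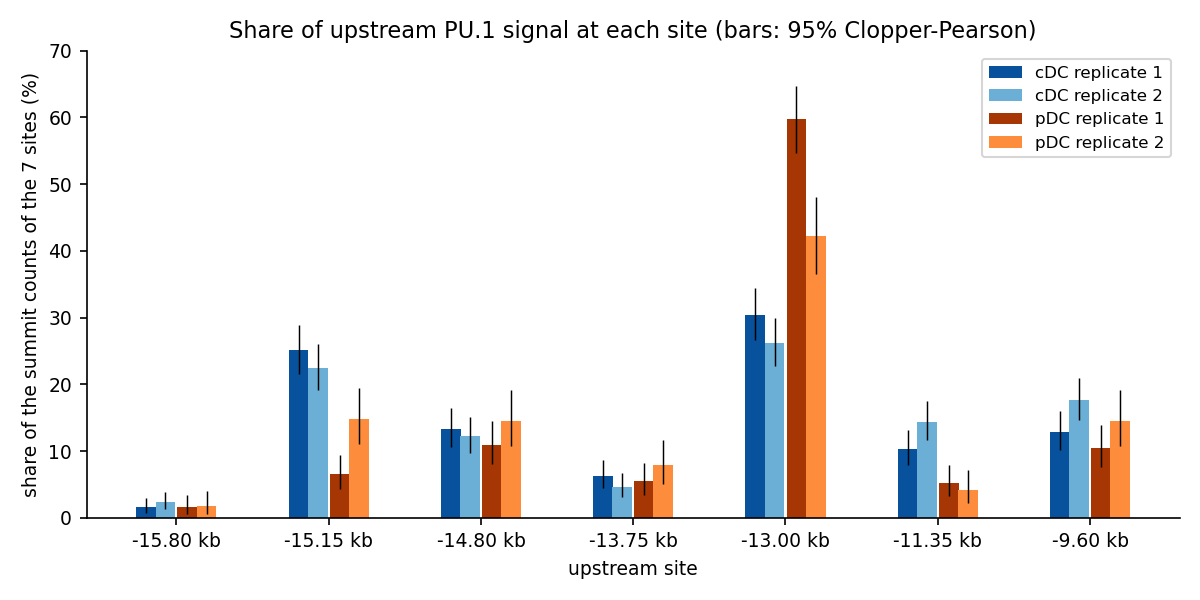
Share in percent (y axis) of the summit counts of the 7 upstream maxima that fell at each site (x axis), per library, with exact 95% binomial intervals as error bars. The -13.00 kb site takes 42.2 and 59.8% in the pDC libraries and 26.3 and 30.5% in the cDC libraries.

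At the Spi1 promoter PU.1 signal was sparse. The windows at 91096101 and 91096151 were the only ones at the site, and the first held 5 and 7 counts in cDCs, 14 and 10 in pDCs and 1 in the input. In CPM these were 0.457 and 0.605 in cDCs and 1.85 and 1.61 in pDCs. Both pDC libraries lay above both cDC libraries. The fitted log2 fold was 1.68 ± 0.55 (edgeR adjusted p = 0.0408, region 0.0431 where 8.46% of all regions were called higher in pDCs). Both windows passed the filter only through pDCs, where they were higher, and each summed to 37 counts over the 5 libraries against a lowest listed sum of 33. Since windows this weak entered the test only by being high in 1 cell type, the fold is given as a description and the p is no independent support for it. At these counts neither cell type stood above the input in the fit, where the input is 1 library without a replicate. The scaled ratio to the input was 1.49 in cDCs and 4.44 in pDCs. The call was lost when any library was left out (1.46 and 1.87 without cDC replicates 1 and 2, 1.57 and 1.77 without pDC replicates 1 and 2) and with library-size scaling (1.55, edgeR adjusted p = 0.0566). With the replicate number as a block it was lost too (1.68, edgeR adjusted p = 0.0585). A site at +0.65 kb held 14 and 17 counts in cDCs and 15 and 4 in pDCs and was not called (log2 fold -0.02 ± 0.53, edgeR adjusted p = 0.990). No window was listed from there to the end of the interval, a stretch of 33.2 kb that holds the rest of the Spi1 span. Windows below a sum of 33 counts over the 5 libraries are not listed, so weaker signal there was not detectable.

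The strongest site of the interval, at -25.40 kb (summit 91070701 to 91070710), lay 0.26 kb outside the span of Slc39a13, which encodes a zinc transporter, at the end where its transcription starts. It held 254 and 263 counts in cDCs and 261 and 162 in pDCs, or 23.2 and 22.7 CPM against 34.4 and 26.1 CPM. Both pDC libraries lay above both cDC libraries in CPM, but the log2 fold of 0.40 ± 0.23 was not called (edgeR adjusted p = 0.257). None of its 13 tested windows was called. Without pDC replicate 2 it was called higher in pDCs (0.58, edgeR adjusted p = 0.00750). Only 316 of 60527 regions had a higher summit in cDCs, and 180 in pDCs. A shoulder of 58 and 88 counts in cDCs and 73 and 32 in pDCs at 91070451 reached towards the gene.

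That shoulder overlies the RefSeq promoter of Slc39a13 (GRCm38.p6), of which the 124 bases upstream of every Slc39a13 transcript, 91070442 to 91070565, were searched for the GGAA core on both strands. The core occurred at 2 places, and 75.1% of 32851 RefSeq promoter stretches of that length hold at least 1. Both are shown with their flanks on the plus strand, the core in capitals, because they are the GGAA letters of this stretch, beside the strongest site, and the first lies at the shoulder. The first lies at chr2:91070446-91070475 and the second at chr2:91070514-91070543.
First GGAA: gggagagtaggacGGAAgtgggtaccctcg
Second GGAA: cggcacccacgcgGGAAccgggatcaacag
The first extends to CGGAAGT, a string searched after it was seen, which 1.19% of the promoter stretches hold on either strand. The longer strings GAGGAA and GAGGAAGT, held by 12.3% and 1.02% of stretches, were not in this one. The summit itself lies outside it. A match is a description of the letters and does not show binding.

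Further out, a site at -44.00 kb, 1.92 kb outside the span of the proteasome ATPase gene Psmc3, held 48 and 57 counts in cDCs and 34 and 27 in pDCs. Its CPM of 4.39 and 4.92 against 4.48 and 4.34 overlapped, at a log2 fold of -0.08 ± 0.30 (edgeR adjusted p = 0.906). Sites at -42.15 kb, beside Psmc3, and at -53.30 kb, inside the span of the acetylcholine receptor clustering gene Rapsn, held at most 12 counts in any library and were not called.

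The input held between 0 and 4 counts in every window of the interval. It was 1 library of cDC chromatin, and pDCs were set against it as well. Its own spread was not measured, so p-values against it rest on the replicate spread of the PU.1 libraries alone. All 5 libraries were fitted together, each with its total over windows as library size. There 48 windows stood at least 2-fold above the input in cDCs and 38 in pDCs at an adjusted p below 0.05, where 30.6% and 27.3% of all windows did. By site, 7 summits of 14 regions passed in cDCs and 7 in pDCs, at -44.00, -25.40, -15.15, -13.75, -13.00, -11.35 and -9.60 kb in both. The scaled ratio to the input at -13.00 kb, where the input held 2 counts, was 20.2 in cDCs (exact 95% interval 5.56 to 168) and 32.5 in pDCs (8.93 to 269). At -11.35 kb, where the input held 0, the same ratio against a limit of 3 input counts was 5.94 in cDCs and 1.97 in pDCs. Passing thus turned on a few input counts. The -11.35 kb summit passed in pDCs with 20 and 12 counts. The window at -13.15 kb, with 59 and 18 counts in pDCs and 4 in the input, did not pass. These ratios and the number of sites above the input depended on the library sizes used, since windows with at least 1000 input counts (repeat windows) held 74.6% of the input's counts and 9.15 to 18.0% of those of the PU.1 libraries. With sizes outside repeat windows the ratio at -13.00 kb was 5.69 in cDCs and 9.55 in pDCs, and with sizes from repeat windows 154 and 177. At -11.35 kb it was 1.67 and 0.581 with the former, so no bound holds there in pDCs. The number of sites was 14 in both cell types when sizes came from repeat windows, and 1 in cDCs and 2 in pDCs when those windows were left out of the sizes.

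Region summits lay densely in and beside the upstream group for this data set. The 7 maxima between -15.80 and -9.60 kb lay 350 to 1750 bp apart. Around the -11.35 kb site 6 other region summits lay within 5000 bp, as many or more than which was found for 0.431% of the 60527 regions, where the median was 1. Those 6 take in the weak sites at -8.45 and -6.80 kb, outside the 7 maxima and not above the input in either cell type. The maximum at -14.80 kb, which shares a region, and the untested window at -15.80 kb were not counted. The rank of the 7 maxima alone was not tested. The -13.00 and -9.60 kb sites each had 5 others, which 1.14% of regions reached, and these too take in the -8.45 kb site and, for -9.60 kb, the -6.80 kb site.

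As a locus, here the gene span with 20 kb on both sides, Spi1 had 359 and 363 CPM in cDCs and 363 and 338 CPM in pDCs, and 111 of 16240 protein-coding loci had a higher mean. The log2 fold was -0.04 ± 0.09 (edgeR adjusted p = 0.793), where 19.9% of loci were called. Of called loci 52.2% were higher in pDCs, and 36.4% with plain library sizes. By the gene span alone the Spi1 log2 fold turned to 0.14 without a call (edgeR adjusted p = 0.561). That span leaves out the summits at -25.40, -15.15 and -14.80 kb and keeps those at -13.00, -11.35 and -9.60 kb. Which sites made the turn was not tested. Locus sums share windows among neighbours: the Slc39a13 locus, with most of the same windows, lay at 0.05 ± 0.10 and Psmc3 at 0.29 ± 0.12, neither called, and Rapsn at 0.00 ± 0.27. Celf1, an RNA-binding protein gene that also reaches into the interval, had no listed window of the interval in its span. The locus of Mybpc3, the cardiac myosin-binding protein C gene on the other side of Spi1, was higher in cDCs at -0.88 ± 0.16 (edgeR adjusted p = 0.00167). Its windows lie beyond the interval, and the Spi1 sum of 77 windows shares those within 20 kb of the Spi1 span. That sum also takes in the -25.40 kb site beside Slc39a13, so its rank and fold are not those of the upstream group alone.

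The 5 loci with the pattern most like Spi1, by Euclidean distance between log2 CPM values over the 4 PU.1 libraries, were those of Iqgap2, a cytoskeletal scaffold (0.066), Elmo2, an engulfment adaptor (0.075), Gnai2, an inhibitory G-protein subunit (0.10), Nfatc2, a calcium-regulated factor (0.14), and Arhgap25 (0.14). None was called different, which follows from picking loci close to Spi1, itself not called, in each library. The likeness is over 4 libraries and one summed value per locus.

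Of 22 genes known as regulators of Spi1 or partners of PU.1, all measured, PU.1 signal was higher in pDCs at 6 loci and higher in cDCs at 0, with 16 left uncalled. Over all loci 10.4% were called higher in pDCs and 9.53% higher in cDCs. The median log2 fold of the list was 0.08, against 0.01 over all loci. The ETS factor genes Spib (1.32 ± 0.19, edgeR adjusted p = 0.000356) and Ets1 (0.88 ± 0.17, edgeR adjusted p = 0.00257) were among the 6. The others were Cebpb (1.12 ± 0.23), Myb (0.84 ± 0.24), Tal1 (0.54 ± 0.15) and Satb1 (0.51 ± 0.16), which encode a myeloid C/EBP factor, a progenitor factor, a bHLH factor and a chromatin organiser. The calls of Cebpb, Myb, Tal1 and Satb1 ended without cDC replicate 1 (0.82, 0.68, 0.52 and 0.41), and those of Myb, Tal1 and Satb1 also without cDC replicate 2 (1.00, 0.53 and 0.64). Plain library sizes ended the calls of Myb (0.76), Tal1 (0.46) and Satb1 (0.42). A mean of at least 30 counts per window ended those of Cebpb (0.45), Tal1 (0.44) and Satb1 (0.47). The Myb call also ended without pDC replicate 1 (0.63). By gene span alone the Spib locus lay at 0.83, the Cebpb locus at 0.35 and the Satb1 locus at 0.49, none called. The 3 loci of the list with the most signal were Ikzf1 (394 and 400 CPM in cDCs, 442 and 433 in pDCs), Fli1 (341 and 343, 329 and 293) and Runx1 (266 and 269, 240 and 220), and none was called.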

How the data were processed

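The authors deposited read counts per 10 bp window without normalisation. Subread 1.4.4 and mm10 are named in the submitters' processing notes. How reads were extended and windows chosen is not given in the sources used here. Counts of each sample were equal to those of the series table for all 5 libraries. Windows were kept with filterByExpr at a minimum count of 10 (43561 removed) and tested in R 4.3.3 with edgeR 4.0.16 (quasi-likelihood), TMM factors and cell type as the only term, on the 4 PU.1 libraries. Sites are windows at most 100 bp apart, split at 5000 bp, with p-values combined by Simes. Neighbouring windows share reads, and totals over windows are not sequencing depth. DESeq2 1.42.0 was an alternative. Genes came from RefSeq GRCm38.p6 spans, without exons. On 40000 simulated windows, edgeR recovered 51 of 100 changed 2-fold and 99 of 100 changed 4-fold, with 8 false calls. The simulated windows were independent and had the same spread in both cell types, unlike the data, so recovery in the data was not tested. Replicates differed beyond counting error (mean chi-square per window 1.4 in cDCs and 2.16 in pDCs). Named genes were those of the interval, a list of 22 regulators (those called and the 3 with the highest CPM) and the 5 nearest patterns. Members and lists were chosen with earlier results of these data known.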

Additional observations from a re-analysis of the deposited data

How the results depend on the processing

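The -15.15 kb difference kept its direction and its call under all 13 alternatives, with log2 folds from -1.93 to -0.76, and from -1.88 to -0.81 when single libraries were left out. The other calls did not. The cause of these losses was not tested. At -11.35 kb the call ended by DESeq2 (-1.47) and without cDC replicate 2 (-1.22), and leaving out single libraries gave -1.72 to -1.22. At -13.00 kb it ended with library-size scaling (0.66), by DESeq2 (0.78) and for the sum over the region (0.68). It ended too with library sizes from repeat windows (0.34, a setting added once the data had been seen). Leaving out libraries gave 0.44 to 1.05, and the call ended without cDC replicate 1 (0.84), cDC replicate 2 (0.66) or pDC replicate 1 (0.44). At the promoter it ended with library-size scaling (1.55), with library sizes from repeat windows (1.13) and with the replicate number as a block (1.68). Leaving out any library ended it too, at 1.46 to 1.87, while DESeq2 gave no adjusted p there. Same-numbered libraries are not stated to share a culture, and their deviations correlated at 0.0168 over windows; the block changed no other call named here. It gave 13 interval windows.

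The 15 called windows of the interval became 1 by DESeq2, 5 with repeat-window sizes and 3 to 21 without single libraries (3 and 4 without cDC replicates 1 and 2, 5 and 21 without pDC replicates 1 and 2). Library-size scaling left 10, all higher in cDCs. That scaling moved the median log2 fold of all windows to -0.11, and repeat-window sizes moved it to -0.54. With the latter, folds turned without a call at -13.75 kb (-0.38), -25.40 kb (-0.074), -42.15 kb (-0.11) and -53.30 kb (-0.30). Leaving out libraries turned the fold without a call, over ranges of -1.08 to 0.52 at +0.65 kb, -0.017 to 0.40 at -13.75 kb, -0.24 to 0.052 at -14.80 kb, -0.35 to 1.19 at -42.15 kb, -0.24 to 0.78 at -53.30 kb and -0.71 to 1.62 at -8.45 kb. At -25.40 kb the range was 0.19 to 0.58. The Spi1 locus turned to 0.14 by gene span alone.

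Sites above the input numbered 14 in each cell type with repeat-window sizes, and 1 in cDCs and 2 in pDCs with sizes outside them. By region sums the mean share at -11.35 kb in pDCs was 7.36% in place of 4.69%, and at -15.80 kb 0.468% and 0.398% in place of 1.98% and 1.65% in cDCs and pDCs. Single libraries gave 11520 to 67438 differing windows (41111 reported), 2656 to 15475 regions (8757) and 1111 to 6209 loci (3238). The counts were 15718 windows and 4223 regions with means of 30 counts or more, 9016 and 1885 by DESeq2, and 20556 and 4879 with 96 loci for repeat-window sizes. By gene span alone 1842 loci differed.

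Among named loci, repeat-window sizes turned Ikzf1 (-0.33), Psmc3 (-0.15), Slc39a13 (-0.40) and Rapsn (-0.53), and ended the calls of the 6 regulators and of Mybpc3. Psmc3 also turned with flanks of 10 kb (-0.013). Slc39a13 turned with library-size scaling (-0.033), with -0.013 to 0.10 over left-out libraries. Rapsn turned with library-size scaling (-0.089), DESeq2 size factors (-0.0029), no filter (-0.031), a mean of at least 30 counts (-0.073) and DESeq2 (-0.0022), with -0.21 to 0.14 over left-out libraries. The promoter and the sites at -53.30, -42.15, -15.80, -8.45, -6.80 and +0.65 kb held at most 17 counts in any library at their summits, which limits what was detectable there.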
